A study of Mus musculus with 6 samples.

Results

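The 46 genes described here belong to the interferon response and to antigen presentation by MHC class I. They were picked by gene symbol and not by a cut on the measured values, though with earlier results of these data known. Of the 46, 44 were among the 16000 genes listed in the tables, and 43 had enough counts to be tested. Psmb8 was listed but too low to test, and Mx1 and Mx2 were not analysed here. By role they are 4 interferon receptor chains, 5 transcription factors, 5 oligoadenylate synthetases (OAS), 5 IFIT and MX effectors, 4 proteins of double-stranded RNA sensing, Isg15 with its protease Usp18, 7 other effectors, 7 interferon-induced GTPases and 7 genes of antigen presentation.

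RNA was sequenced from NIH3T3 cells, an established line of mouse embryo fibroblasts, in 3 libraries with the genotype label WT and 3 with the label Rai16 KO. Both groups had been put through serum starvation, so no library shows the cells with serum. The sources used here do not say how the knockout was made or whether it is 1 clone. Whether the 3 libraries of a genotype stem from separate cultures is not in the labels either, so each p-value measures library-to-library spread, which may be technical. The targeted gene, listed as Fam160b2, was not lower by test in knockout. Its level was 23.8 ± 1.49 counts scaled to library size (CPM) in wild type against 21.9 ± 0.395 CPM in the knockout libraries (SD, 3 libraries a group), or −0.12 ± 0.075 on the log2 scale (SE; adjusted p = 0.184 in edgeR). Counts over the whole gene would miss a small lesion, so the group names rest on the labels.

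Total counts ran from 16741607 to 18368760 per library. Knockout replicate 2 stood apart from the other libraries of its group in a way that followed gene length, and its effect is given beside the results it touches. Fibroblast markers were abundant, with the 10 on the list summing to 5878 to 6016 FPKM in wild type and 6254 to 6487 FPKM in knockout. Single markers moved both ways. Col3a1, Ddr2, Fn1 and Pdgfrb fell by 1.64, 1.39, 0.60 and 0.20 on the log2 scale. Thy1, Col1a1, Col1a2 and Vim rose by 0.90, 0.65, 0.52 and 0.50, and Pdgfra and S100a4 did not differ by test. Leukocytes are a common source of interferon-induced transcripts. Of 10 listed leukocyte markers 8 were below 1 FPKM in every library, among them Ptprc, Itgam, Adgre1 and Tyrobp. Adgre1 and Tyrobp were at 0 counts in wild type. The list summed to 15.8 to 16.66 FPKM in wild type and 13.0 to 16.6 FPKM in knockout, most of it Cd14 and Cd68. Within the list, with genes named after their values were seen, Cd14 fell by 0.45 on the log2 scale, Cd68 rose by 0.51, and Csf1r rose by 2.20 from 6, 4 and 10 counts to 41, 36 and 22 (adjusted p from 0.00101 to 0.00858, edgeR). Endothelial markers summed to 0.106 to 0.223 FPKM in wild type and 0.578 to 1.48 FPKM in knockout, and epithelial markers to 0.966 to 1.18 and 2.50 to 3.20 FPKM. The part of any of these lists in the results was not tested, and in bulk RNA fewer cells of a type and less RNA per cell cannot be told apart.

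Type I interferons bind a receptor of the chains IFNAR1 and IFNAR2, and interferon gamma binds IFNGR1 and IFNGR2. JAK kinases on these receptors phosphorylate STAT proteins. STAT2 and IRF9 are parts of the complex ISGF3, which binds the interferon-stimulated response element (ISRE) in promoters, whereas the response to interferon gamma works through the gamma-activated site (GAS). The induced genes sense and degrade viral RNA, block viral entry and assembly, and supply peptides and MHC class I molecules to the cell surface. Many of them are transcribed at a low level without infection, and the genes for IRF7, STAT2 and IRF9 are themselves induced by interferon.

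The promoter stretches below show the ISRE in genes that differed in how they behaved between the groups. The ISRE core (GAAA, any 2 bases, then GAAA) was searched on both strands in windows of 300 bases around the gene start, taken from RefSeq (GRCm38.p6). At least 1 window was found for 38 of the 46 genes. Of these 38 genes, 17 (44.7%) held the ISRE core, against 3.99% of all genes with a window. The GAS core TTCNNNGAA was in 12 of them (31.6%), against 9.55% of all genes. Capitals mark every ISRE match, read 5′ to 3′ on the gene's strand, and matches can overlap each other. Matches that begin with TTTC are the same core read on the opposite strand.
Bst2: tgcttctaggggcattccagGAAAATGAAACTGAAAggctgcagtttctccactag
Isg15: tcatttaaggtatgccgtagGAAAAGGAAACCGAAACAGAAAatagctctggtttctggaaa
Ifit1: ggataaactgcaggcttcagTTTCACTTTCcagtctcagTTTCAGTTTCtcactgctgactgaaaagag
Stat2: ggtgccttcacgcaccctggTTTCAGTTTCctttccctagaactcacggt
Igtp: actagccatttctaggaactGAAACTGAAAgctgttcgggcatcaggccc
Irgm2: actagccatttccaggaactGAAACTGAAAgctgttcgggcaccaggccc
Gbp2: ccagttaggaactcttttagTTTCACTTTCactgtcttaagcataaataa
The stretches lie at chr8:71537567-71537622 (minus strand) for Bst2 and chr4:156200855-156200916 (minus strand) for Isg15. Those on the plus strand lie at chr19:34640765-34640833 for Ifit1, chr10:128270256-128270305 for Stat2, chr11:58199502-58199551 for Igtp, chr11:58214893-58214942 for Irgm2 and chr3:142620584-142620633 for Gbp2. All lie before the annotated gene. Isg15 held 3 overlapping matches from 78 to 57 bases before the start, Bst2 2 overlapping ones from 130 to 115 bases before it, and Ifit1 2 separate ones. Igtp and Irgm2 differed at 2 of the 50 bases shown.

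Wild-type cells carried these transcripts at high levels without any added interferon in the labels. Levels between genes are compared as FPKM, which takes gene length and library size into account. B2m, the light chain of MHC class I, was highest at 1678 ± 8.39 FPKM, rank 13 of all 16000 genes. Bst2 (tetherin, which holds budding virions at the cell surface) followed at 379.6 ± 13.7 FPKM and H2-D1, an MHC class I heavy chain, at 355.7 ± 9.40 FPKM. Ifit1, which binds RNA lacking the host's cap modification, was at 277 ± 4.71 FPKM and Isg15, a ubiquitin-like modifier, at 255 ± 8.11 FPKM (SD, n = 3 each).

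In all, 14 of the 44 listed genes exceeded 100 FPKM in wild type, 40 exceeded 10 FPKM, and 22 were among the 1000 highest genes. At the low end were the interferon receptors (11.4 to 28.9 FPKM), Oasl1 (10.8 ± 0.896), Psmb9 (9.47 ± 0.794), Ifi27 (5.77 ± 0.677), the RNA sensor gene Ifih1 (0.923 ± 0.150) and Psmb8 (0.301 ± 0.0715 FPKM). In the order of wild-type levels, 18 of the 43 pairs of neighbours overlapped between libraries, for example Isg15 with Tapbp, Usp18 with Oas2, and Irf9 with Irf7. Of 9 interferon genes looked for, 4 were listed and 1 could be tested. Ifnb1, for interferon beta, had 21, 31 and 27 counts in wild type and 25, 27 and 39 in knockout, and did not differ by test (log2 fold change 0.12 ± 0.27 SE, adjusted p = 0.724, edgeR).

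**Figure D1:**
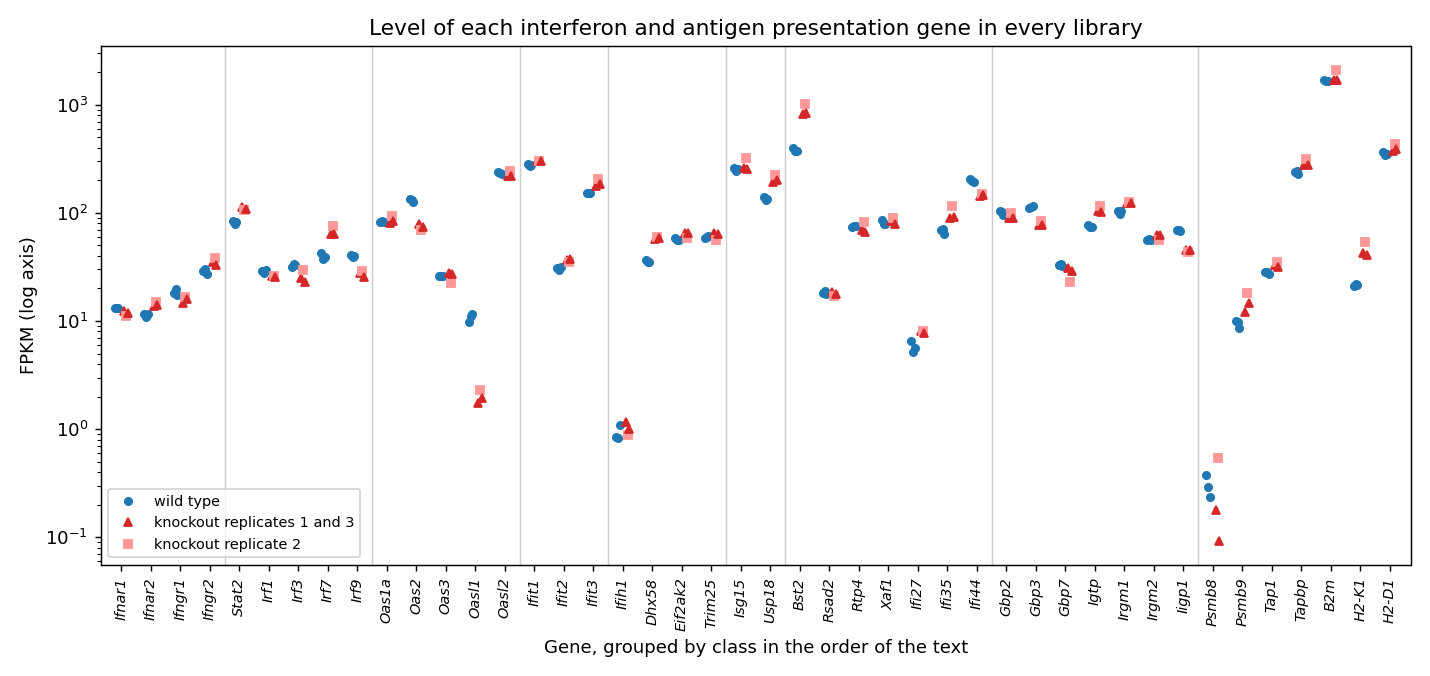
FPKM (log axis) of the 44 listed genes in each of the 6 libraries, with genes along the x axis separated by class. Circles are the 3 wild-type libraries, triangles knockout replicates 1 and 3, and squares knockout replicate 2. Oasl1 drops from about 10.8 to 1.98 FPKM, Bst2 and H2-K1 stand higher in knockout, and Psmb8 stays below 1 FPKM in all libraries.

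The question of the comparison was which of these transcripts differ between libraries labelled knockout and wild type under serum starvation. They did not shift together: Bst2, H2-K1, Irf7 and Dhx58 were higher in knockout, while Oasl1, Oas2, Iigp1 and Irf9 were lower. Of the 43 tested, 27 were called at an adjusted p under 0.05 in edgeR's quasi-likelihood test, 17 higher and 10 lower. That is 62.8%, beside 59.6% of all 11972 genes tested (30.5% higher and 29.2% lower). A share this near the background is not a result about these genes. Changes of at least 2-fold were called for 3 of them (Oasl1, Bst2 and H2-K1), beside 10.9% of all genes. The median log2 fold change of the 43 was 0.12 (0.00 for all genes), and the median size was 0.27 (0.32 for all genes). With the trend of each library with gene length removed, an alternative chosen after seeing the data, the median of the 43 was 0.05.

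**Figure D2:**
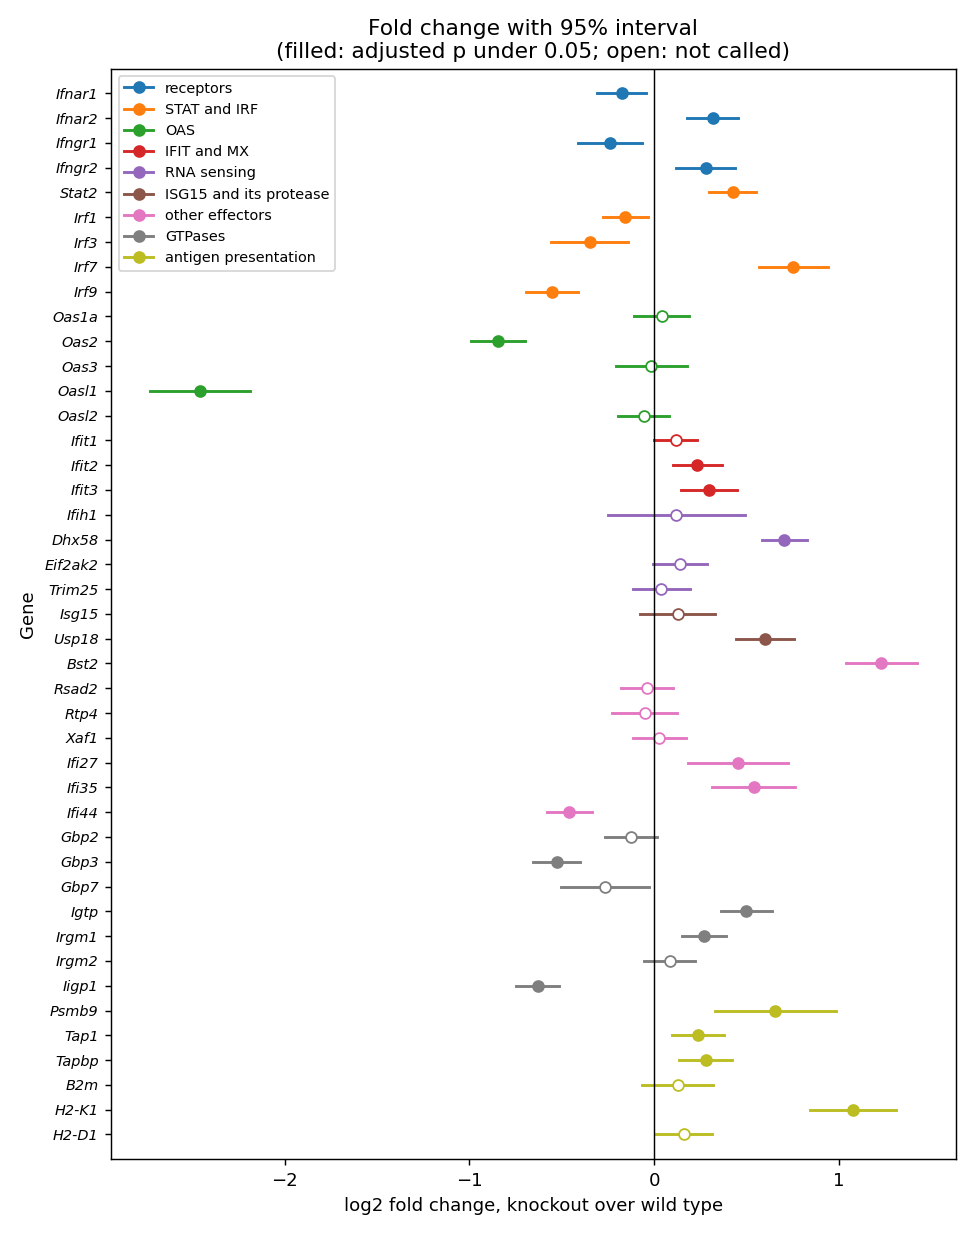
log2 fold change of knockout over wild type for the 43 tested genes, ordered and coloured by class. Points are the fitted values and bars their 95% intervals; filled points passed an adjusted p of 0.05. Oasl1 lies far to the left at −2.46 and Bst2 and H2-K1 farthest to the right, at 1.23 and 1.08.

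Knockout replicate 2 had more counts than replicates 1 and 3 in short genes and fewer in long ones. Over all 11972 genes tested, its deviation from the other knockout libraries had a Spearman correlation of −0.661 with gene length, and wild-type libraries had at most 0.158 in size. The points are genes of the same libraries and not independent, so this is a description. Among the 43 genes the correlation was −0.816. Replicate 2 was the highest knockout library for 28 of them and the lowest for 13. It stood at 1.32 times the mean of replicates 1 and 3 for Psmb9 and at 0.750 times for Gbp7. Gene lengths were derived from the counts and the FPKM values.

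Without knockout replicate 2, 37 of the 43 genes were called, 23 higher and 14 lower, beside 71.1% of all genes. All 27 genes called with 6 libraries were among them, in the same direction. The 10 others were Oas3, Oasl2, Ifit1, Eif2ak2, Trim25, Rtp4, Gbp2, Gbp7, Irgm2 and H2-D1, each with a log2 change of at most 0.20 in size. The length trend also ran between the groups, with a Spearman correlation of −0.188 between length and log2 fold change over all genes and −0.396 over the 43. With the trend removed, 31 genes were called, where the share over all genes was 67.1%, and 26 of the 27 kept their call and direction; the other, Ifnar1, did not pass (−0.07, adjusted p = 0.205). What made replicate 2 differ was not tested.

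**Figure D3:**
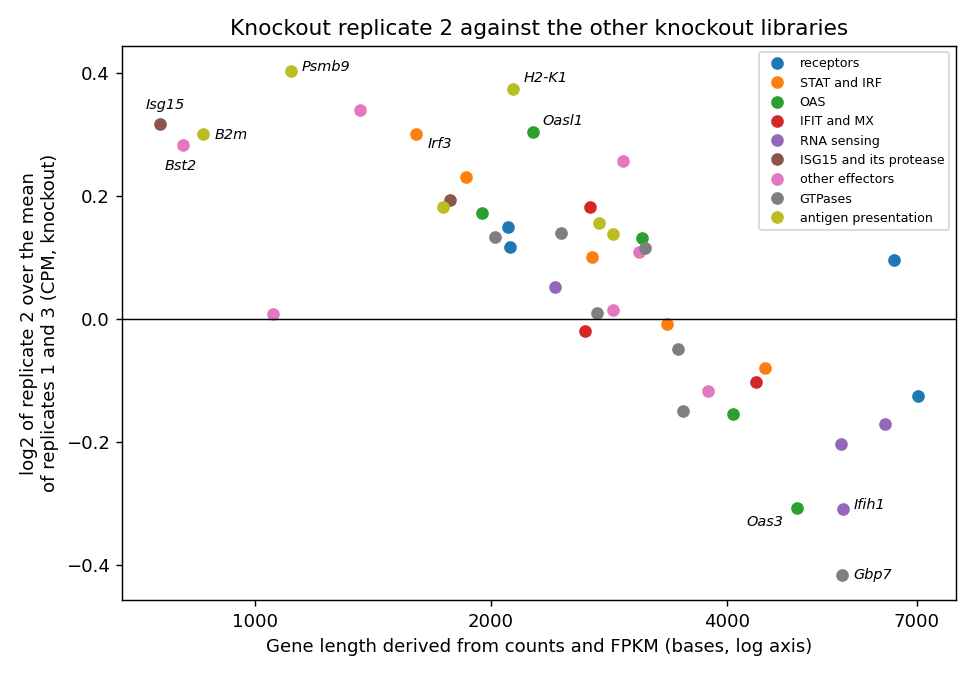
Each point is 1 of the 43 tested genes, coloured by class; the x axis is gene length in bases (log axis) and the y axis the log2 ratio of knockout replicate 2 to the mean of knockout replicates 1 and 3 in CPM. Short genes such as Isg15, Bst2, B2m and Psmb9 lie above 0, and long ones such as Gbp7, Ifih1 and Oas3 lie below it.

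The 4 receptor chains passed the test, as did 59.6% of all genes, but the partners of each receptor moved in opposite directions. From here on values are CPM, scaled by TMM. Ifnar2 was at 76.5, 70.9 and 76.3 CPM in wild type and 89.9, 97.0 and 91.7 CPM in knockout, and its partner Ifnar1 at 93.5, 93.5 and 93.1 against 86.6, 78.0 and 83.5 CPM. The groups overlapped for neither chain, with Ifnar2 higher and Ifnar1 lower in every knockout library. Their log2 fold changes were 0.32 ± 0.060 (adjusted p = 0.00177, edgeR) and −0.17 ± 0.059 (SE; adjusted p = 0.0291). For interferon gamma, Ifngr2, the chain that brings in JAK2, rose by 0.28 ± 0.071, and the ligand-binding chain Ifngr1 fell by 0.24 ± 0.076. Both falls were less firm. Ifnar1 lost its call without wild-type replicate 1, 2 or 3 or knockout replicate 3 (adjusted p from 0.0663 to 0.0880) and with the replicate number as a block (0.0630), and Ifngr1 lost it without wild-type replicate 1 or 2 or knockout replicate 1 (adjusted p from 0.0560 to 0.101). These changes were at most 1.25-fold.

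The 5 transcription factor genes passed as well, 2 higher and 3 lower, beside the same 59.6% of all genes. Irf7, the factor that amplifies interferon production and is itself induced by interferon, rose the most. It was at 79.5, 70.6 and 73.0 CPM in wild type and 117, 139 and 120 CPM in knockout, or 0.75 ± 0.081 on the log2 scale (SE; adjusted p = 6.22e-05 in edgeR). No knockout library reached down to wild type. Irf3, the constitutive factor that starts interferon transcription, fell from 53.0 ± 1.88 to 41.6 ± 5.47 CPM (−0.35 ± 0.092), so the related pair Irf3 and Irf7 moved in opposite directions. Irf1 had a log2 fold change of −0.16 ± 0.053 (adjusted p = 0.0312). It did not pass with the replicate block (0.0819) or when any library but knockout replicate 2 was left out (adjusted p from 0.0579 to 0.119).

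Stat2 and Irf9, whose products are parts of ISGF3, moved in opposite directions. Stat2 was at 376, 354 and 368 CPM in wild type and 508, 473 and 492 CPM in knockout and rose by 0.42 ± 0.057 on the log2 scale (adjusted p = 2.19e-04, edgeR). Irf9, its DNA-binding partner, was at 111, 106 and 109 CPM against 75.3, 77.4 and 69.0 CPM and fell by 0.55 ± 0.062 (adjusted p = 7.96e-05). For both genes the groups were well apart.

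Among the OAS genes, whose products are switched on by double-stranded RNA, 2 of 5 fell and 0 rose with all libraries, beside 29.2% of all genes lower and 30.5% higher. Without knockout replicate 2, 4 were called, beside 71.1% of all genes, and Oas3 was then higher. OAS1, OAS2 and OAS3 then make a short RNA messenger that leads to the decay of RNA in the cell. Oasl1, a restrainer of Irf7 translation, was at 22.4, 25.3 and 26.2 CPM in wild type and 3.91, 5.12 and 4.39 CPM in knockout. Every knockout library was far below every wild-type library, a 5.50-fold fall (log2 fold change −2.46 ± 0.12 SE, adjusted p = 5.65e-07, edgeR). Oasl2, whose gene lies beside it, was at 752, 735 and 715 CPM against 679, 749 and 689 CPM. These groups overlapped, and the difference did not pass (−0.06, 95% interval −0.19 to 0.08, adjusted p = 0.433). Without knockout replicate 2 it was called at −0.10, far smaller than the fall of Oasl1.

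Oas2 was at 555, 544 and 522 CPM in wild type and 319, 280 and 305 CPM in knockout. It fell by 0.84 ± 0.065 on the log2 scale (adjusted p = 7.94e-06, edgeR), with no overlap between groups. Oas3, next to Oas2 in the same cluster, was at 128, 129 and 128 CPM against 138, 110 and 133 CPM. Knockout replicate 2 was below all wild-type libraries and the other knockout libraries were above them, and its log2 fold change was −0.02 (−0.21 to 0.18). Without that library it was 0.08 (adjusted p = 0.0493). Oas1a lay at 162 ± 2.79 and 167 ± 12.5 CPM, with a log2 fold change of 0.04 (−0.11 to 0.19; −0.02 without knockout replicate 2 and −0.06 with the length trend removed). Oas1a has near-identical copies, and no source says how reads common to them were assigned, so its counts are uncertain.

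Of the 3 IFIT genes, which lie together on chromosome 19, 2 rose and Ifit1 did not pass (66.7% called, beside 59.6% of all genes). Ifit3 was at 415, 408 and 416 CPM in wild type and 471, 550 and 498 CPM in knockout, and rose by 0.30 ± 0.067 on the log2 scale (adjusted p = 0.00431, edgeR). Ifit2 rose by 0.23 ± 0.059 (adjusted p = 0.00755). Ifit1 was at 749, 725 and 729 CPM against 791, 789 and 808 CPM. Its groups did not overlap, as was the case for 67.6% of all genes, yet its log2 fold change of 0.12 ± 0.052 did not pass (adjusted p = 0.0796). Without knockout replicate 2 the value was 0.12 as well and passed (adjusted p = 4.66e-05).

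Of the 4 RNA sensing genes, Dhx58 alone passed (25.0% called, beside 59.6% of all genes). It encodes LGP2, a helicase that tunes the sensors RIG-I and MDA5, and was at 88.3, 85.5 and 85.5 CPM in wild type and 137, 144 and 141 CPM in knockout. The libraries of each group lay close together and the groups far apart, a 1.63-fold rise (log2 fold change 0.71 ± 0.054 SE, adjusted p = 8.16e-06, edgeR). Ifih1, the gene of MDA5, was the lowest of the 43 in wild type, at 5.23 ± 0.850 and 5.68 ± 0.777 CPM, and its interval was wide (−0.25 to 0.49). Eif2ak2, the kinase PKR that halts translation, lay at 363 ± 9.45 and 401 ± 26.9 CPM (0.14 ± 0.064, adjusted p = 0.0853), and passed without knockout replicate 2 (0.20, adjusted p = 3.58e-08) and with the length trend removed (0.23). Trim25, the ubiquitin ligase that acts on RIG-I, had a log2 fold change of 0.04 (−0.12 to 0.19) and passed without that library at 0.11 (adjusted p = 0.00166). Of all genes, 71.1% were called without knockout replicate 2.

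Isg15 and its protease gene Usp18 gave different results. USP18 removes ISG15 from proteins and also blocks signalling at IFNAR2. Usp18 was at 249, 233 and 240 CPM in wild type and 340, 398 and 356 CPM in knockout, with every knockout library above every wild-type library. It rose by 0.60 ± 0.070 on the log2 scale (adjusted p = 1.01e-04, edgeR). Isg15 was at 199, 187 and 195 CPM against 196, 244 and 195 CPM. Only knockout replicate 2 exceeded the wild-type range, and the log2 fold change of 0.13 (−0.07 to 0.33, adjusted p = 0.242) was 0.02 without that library. Of the enzymes that attach ISG15, the E1 gene Uba7 fell by 0.75 ± 0.069 and the E2 gene Ube2l6 rose by 0.72 ± 0.077. The ligase gene Herc6 fell by 0.62 ± 0.074. These genes were named after their values were seen and are not a full list of such enzymes.

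Bst2 had the highest fold rise of the 43 genes. It was at 321, 302 and 301 CPM in wild type and 665, 821 and 683 CPM in knockout, and the lowest knockout library was above the highest wild-type library by a wide margin. The log2 fold change was 1.23 ± 0.085 (SE; 2.35-fold; adjusted p = 4.40e-06, edgeR), and 1.13 without knockout replicate 2. Ifi35, a leucine zipper protein gene, rose by 0.54 ± 0.099, and Ifi27 by 0.45 ± 0.12 from only 6.10 ± 0.720 CPM.

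Ifi44 was the 1 member of this group of effectors that fell, from 592, 572 and 559 CPM to 413, 421 and 420 CPM (−0.46 ± 0.053, adjusted p = 9.33e-05, edgeR). The antiviral enzyme gene Rsad2 (viperin), the receptor transporter gene Rtp4 and the apoptosis factor gene Xaf1 overlapped between groups. Their log2 fold changes were −0.04 (−0.18 to 0.10), −0.05 (−0.23 to 0.12) and 0.03 (−0.12 to 0.17). The sign is not settled by these libraries: without knockout replicate 2 the values were 0.00, −0.14 (adjusted p = 1.87e-04) and −0.01, and Rtp4 was also at 0.00 without knockout replicate 3.

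The interferon-induced GTPases act on membranes that enclose intracellular microbes. Guanylate-binding proteins (GBP) coat them, and immunity-related GTPases (IRG) load onto them or, for the IRGM proteins Irgm1, Irgm2 and Igtp, keep the others off host membranes. The IRGM genes were higher or not called: Igtp rose by 0.50 ± 0.061 on the log2 scale (adjusted p = 1.33e-04, edgeR) and Irgm1 by 0.27 ± 0.053. Irgm2 did not pass (0.08, −0.05 to 0.22). Igtp was at 159, 151 and 151 CPM in wild type and 212, 230 and 209 CPM in knockout, with no overlap. Irgm2 was at 197, 203 and 198 CPM against 217, 197 and 220 CPM, where knockout replicate 2 fell within the wild-type range, and it passed without that library (0.13, adjusted p = 3.35e-04). These neighbours carry the near-identical ISRE stretches shown above. Their transcripts are related too, and reads they share are of uncertain assignment.

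Iigp1, an effector IRG, fell from 240, 242 and 235 CPM to 156, 151 and 156 CPM, or −0.63 ± 0.052 on the log2 scale (SE; adjusted p = 1.26e-05 in edgeR). In the GBP cluster on chromosome 3, Gbp3 fell from 359 ± 4.28 to 249 ± 11.6 CPM (−0.53 ± 0.057). Gbp2 (−0.12 ± 0.063) and Gbp7 (−0.27 ± 0.11) did not pass with all libraries. Gbp7 is a long gene and was at 173, 127 and 165 CPM in knockout against 186, 191 and 183 CPM in wild type. It passed without knockout replicate 1 (−0.35, adjusted p = 0.0213) or 2 (−0.14, adjusted p = 4.42e-04), and Gbp2 passed without replicate 2 (−0.17, adjusted p = 8.63e-06). All 7 GTPase genes were called when that library was left out, beside 71.1% of all genes. With all libraries 4 were called (57.1%, beside 59.6% of all genes).

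For antigen presentation, 4 of the 6 genes tested rose and 0 fell, so 66.7% were called beside 59.6% of all genes. H2-K1, an MHC class I heavy chain, was at 45.0, 46.9 and 46.4 CPM in wild type and 89.7, 115 and 87.3 CPM in knockout. Every knockout library was far above every wild-type library, or 1.08 ± 0.10 on the log2 scale (SE; adjusted p = 2.98e-05 in edgeR; 0.94 without knockout replicate 2). H2-D1, the other classical heavy chain here, was far more abundant and moved little, at 638, 605 and 617 CPM against 655, 753 and 674 CPM (0.16 ± 0.067, adjusted p = 0.0620). It passed without knockout replicate 1 (0.20, adjusted p = 0.0415) or 2 (0.10, adjusted p = 0.00121). MHC class I genes vary between mouse strains and have close copies, and how reads of shared sequence were counted is not given, so these counts are uncertain. B2m, whose product pairs with both heavy chains, was at 1455, 1444 and 1440 CPM against 1468, 1808 and 1466 CPM. The groups did not overlap, but the log2 fold change of 0.13 (−0.06 to 0.32) did not pass and was 0.02 without knockout replicate 2.

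Tap1, Tapbp and Psmb9 rose. Tap1, a subunit of the peptide transporter, was at 81.4, 81.9 and 78.0 CPM in wild type and 93.3, 101 and 90.1 CPM in knockout (0.24 ± 0.062, adjusted p = 0.00941, edgeR; adjusted p = 0.0517 without wild-type replicate 3). Tapbp, the tapasin that bridges the transporter and MHC class I, rose from 658 ± 23.6 to 797 ± 50.7 CPM (0.28 ± 0.064). Psmb9, a catalytic subunit of the immunoproteasome, rose from 10.6 ± 0.886 to 16.6 ± 3.16 CPM (0.65 ± 0.14, adjusted p = 0.00389). Psmb8, another catalytic subunit of the same particle, was nearly absent, with 8, 6 and 5 counts in wild type and 4, 12 and 2 in knockout.

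Each immunoproteasome subunit takes the place of a constitutive one, so its FPKM was expressed as a percent of that subunit. Psmb9 stood at 12.3%, 12.9% and 10.3% of Psmb6 in wild type and 12.3%, 14.0% and 14.9% in knockout. The ranges overlapped (exact two-sided permutation test, p = 0.3, 0.45 adjusted over 3 ratios). Psmb6 itself rose by 0.43 ± 0.10 on the log2 scale, as did Psmb7 by 0.42 ± 0.090, while Psmb5 fell by 0.43 ± 0.085. Psmb10 stood at 26.2%, 26.6% and 27.6% of Psmb7 in wild type and 31.9%, 30.2% and 29.3% in knockout, without overlap and with the smallest p that 3 against 3 libraries can give (0.1, exact, 0.3 adjusted). Psmb8 was at 0.290% to 1.38% of Psmb5 over the 6 libraries (p = 0.9, exact).

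Other genes of the pathway came from a list of 135, of which 107 were tested. Of these, 35 rose and 39 fell, together 69.2% beside the background of 59.6%. Their median log2 fold change was −0.03. Calls of at least 2-fold were falls for 11 genes and rises for 2, together 13 of 107. Over all genes such falls were also more frequent, at 6.53% against 4.32% for rises. Cxcl10, a chemokine that draws T cells, fell from 225, 226 and 227 CPM to 30.0, 31.7 and 27.6 CPM (−2.92 ± 0.068 SE, adjusted p = 8.40e-09, edgeR). Gbp5, a GBP that promotes inflammasome assembly, went from 47.1, 47.7 and 44.3 CPM to 6.62, 5.88 and 6.98 CPM (−2.83 ± 0.086). Knockout libraries of both genes lay in a narrow band far under wild type. Gbp5 lies in the cluster that holds Gbp2, Gbp3 and Gbp7. Gbp4, named after its value was seen, rose by 0.43 ± 0.075.

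The list of nucleic acid sensing held 6 rises and 5 falls among 16 genes (68.8% called, beside 59.6% of all genes). Aim2, a sensor of cytosolic DNA, fell from 24.9 ± 1.95 to 5.39 ± 0.326 CPM (−2.21 ± 0.10), and Sting1, the adaptor of the cGAS pathway, from 20.4 ± 1.74 to 8.14 ± 0.440 CPM (−1.32 ± 0.099). Outside the sensing list, Ms4a4d, a membrane protein gene, fell by 2.33 ± 0.095, the Schlafen gene Slfn8 by 1.67 ± 0.065 and the GTPase gene Gvin1 by 1.07 ± 0.13. Oas1c, a relative of Oas1a and also outside that list, rose by 1.13 ± 0.15 from 4.37 ± 0.819 CPM.

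Among 19 other genes of antigen presentation 9 rose and 6 fell (78.9% called, beside 59.6%). Nlrc5, the transactivator of MHC class I genes, fell from 40.8, 41.4 and 35.8 CPM to 15.7, 13.5 and 17.7 CPM (−1.33 ± 0.11 SE, adjusted p = 1.05e-05, edgeR). Of the antigen presentation genes described above, H2-K1, Tap1, Tapbp and Psmb9 were higher in the same libraries, and B2m and H2-D1 did not pass. A link of Nlrc5 to any of these levels was not tested. H2-Q4, a non-classical MHC gene, fell by 1.47 ± 0.064, and Cd1d1, which presents lipids, by 1.72 ± 0.085. Calr, the chaperone calreticulin of the peptide-loading complex, rose by 1.08 ± 0.074. The other immunoproteasome subunit gene, Psmb10, rose by 0.61 ± 0.091.

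**Figure D4:**
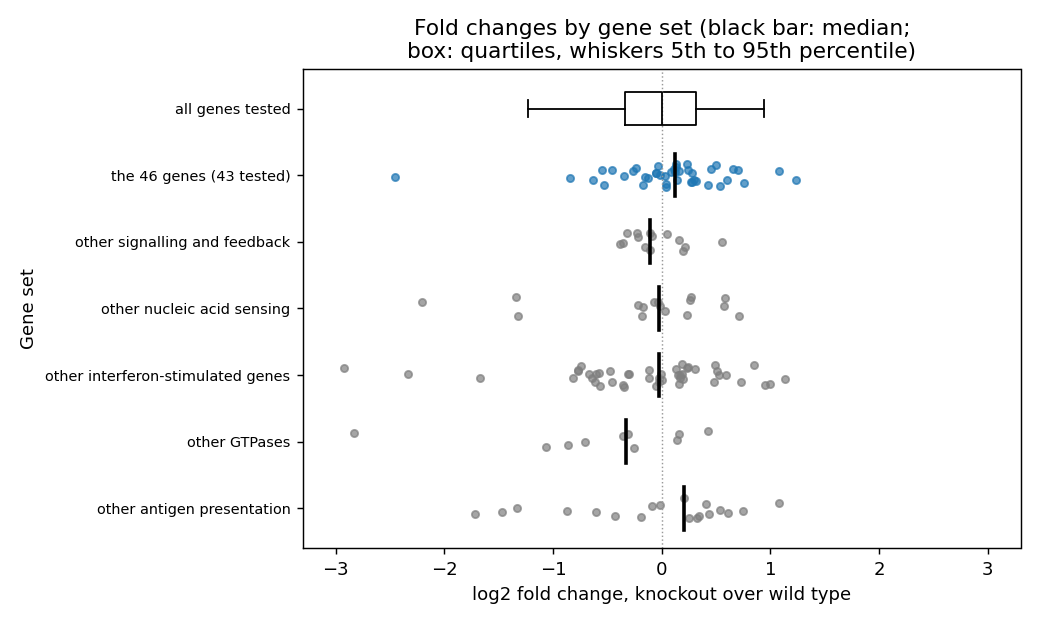
log2 fold change of knockout over wild type for all 11972 genes tested (box with quartiles, whiskers from the 5th to the 95th percentile), for the 43 tested genes of the 46, and for the other pathway genes by group. Each point is a gene and black bars are medians. The median is 0.12 for the 43 genes, 0.20 for other antigen presentation genes and −0.33 for other GTPases, and the farthest points on the left are Cxcl10 and Gbp5.

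Genes with the ISRE core were found among the risers, the fallers and the genes that did not pass. Of 17 tested genes with the core, 5 rose, 1 fell and 11 were not called, with a median log2 fold change of 0.12 (59.6% of all genes were called). Without knockout replicate 2, 12 of the 17 were called, 9 higher and 3 lower, beside 71.1% of all genes. Of 20 tested genes whose window lacked these letters, 9 rose, 7 fell and 4 were not called, with a median of 0.10, and 19 were called without that library. Isg15 and Bst2, with 3 and 2 overlapping matches, gave 0.13 and 1.23. The median wild-type level was 83.1 FPKM for genes with the core and 31.8 FPKM for those without. No test was made of these counts, and a match is not a bound site.

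Each gene was also set beside the 20 tested genes around it (10 on each side, other members of the 46 left out, order from RefSeq GRCm38.p6). For 20 of the 27 called genes (74.1%) the median of the neighbours had the same sign, beside 75.3% of all called genes. Bst2 lay among genes with a median log2 fold change of 0.55, 14 of 20 higher and 2 lower. Irf7 and Usp18 also lay among risers, with medians of 0.44 and 0.41 and 13 of 20 neighbours higher for each. Irf9 lay among genes that fell, with a median of −0.41 and 13 of 20 lower.

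Other genes departed from their surroundings. The neighbours of Isg15 had a median of −0.55, with 13 of 14 lower, while Isg15 was at 0.13. Ifi27 rose by 0.45 among neighbours with a median of −0.45, and Rsad2 was at −0.04 among neighbours at 0.38. The neighbours of Oasl1 and Oasl2 had a median of 0.15, against −2.46 and −0.06 for these 2 genes. Those of H2-K1 were at 0.11 against 1.08, and those of Oas2 and Oas3 at 0.00 against −0.84 and −0.02. The part of the neighbourhood in each change was not tested.

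**Figure D5:**
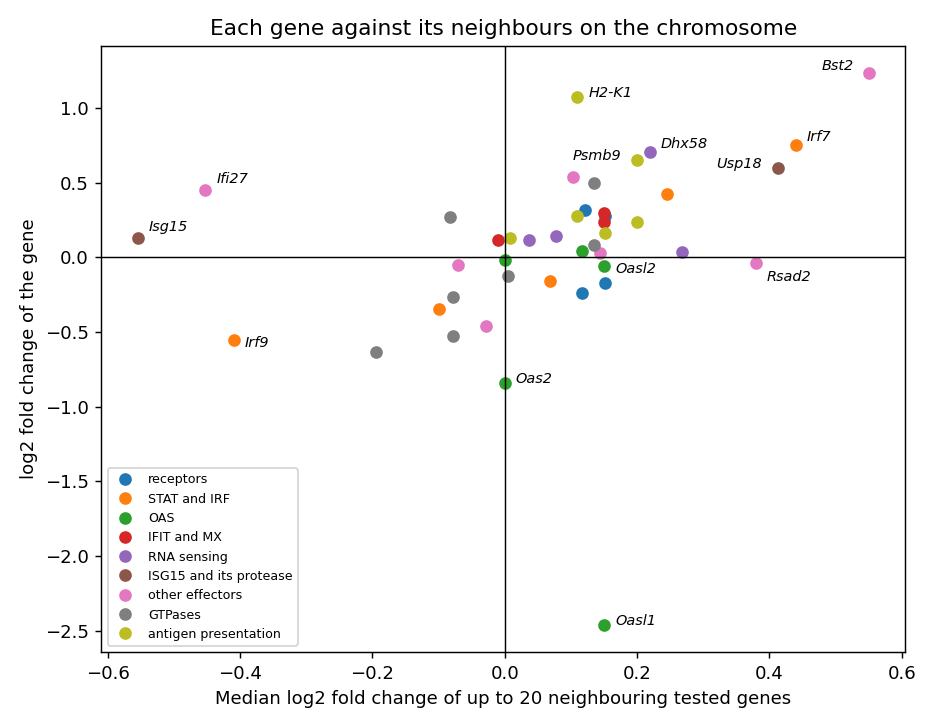
log2 fold change of each of the 43 tested genes (y axis) against the median log2 fold change of up to 20 neighbouring tested genes (x axis), coloured by class. Bst2, Irf7, Usp18 and Irf9 lie in the same direction as their neighbours, Ifi27 and Isg15 stand above neighbours that are lower, and Oasl1 lies far below the rest.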

How the data were processed

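The authors deposited 2 tables of 16000 genes for 6 libraries, one of unnormalized counts and one of FPKM. Per the labels' protocols, RNA was taken up in TRIzol and libraries were made with the TruSeq Stranded mRNA kit. The build was GRCm39 and the tools Trimmomatic, HISAT2, Cufflinks, HTSeq and DESeq, per the submitters' processing notes. The sources used here state no versions or strand setting, so antisense overlap cannot be told apart if strand was not used. The deposited FPKM matched count over total and a single length per gene within 8.04e-05%.

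The 11972 genes that filterByExpr kept were scaled with TMM factors. The quasi-likelihood test of edgeR 4.0.16 in R 4.3.3 compared the genotypes, with Benjamini-Hochberg adjustment over all genes. Standard errors are the size of the log2 fold change over the square root of F, and 95% intervals use the fit's degrees of freedom. The fit was tested on simulated data with few changed genes and no trend with gene length. That run does not show how the fit behaves where most genes are called and 1 library follows gene length. Alternatives were DESeq2 1.42.0, limma 3.58.1 on log2(FPKM + 1), other scalings, no filter, a replicate block, each library left out and removal of the length trend. All 46 genes are named, and other pathway genes where called at a log2 change of at least 1 and a mean of at least 5 CPM, except an item not reported here. The genes, lists and tests were chosen with earlier results of these data known.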

Additional observations from a re-analysis of the deposited data

How the results depend on the processing

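Of the 43 tested genes, the number called was 27 with all libraries, 27 with DESeq2 size factors, total counts or limma on log2(FPKM + 1), 28 with DESeq2, 25 without the filter, 31 with the length trend removed, and 24 to 37 when 1 library was left out. With the replicate number as a block, 25 were called, and Ifnar1 and Irf1 were lost; it changed no other call among the 43. Same-numbered libraries did not deviate together over all genes (correlations of −0.0725, −0.0938 and 0.0221). Such correlations cannot show whether a number marks a shared culture or batch. The knockout deviations also carry the trend of replicate 2 with gene length. Over all genes, calls numbered 6048 to 8586 with 1 library left out. By class, leaving out 1 library gave 2 to 4 called receptor genes (2 without wild-type replicate 1 or 2), and 2 to 4 OAS, 1 to 3 RNA sensing and 4 to 7 GTPase genes (the highest without knockout replicate 2), and removing the length trend gave 3 for RNA sensing. Directions reversed only for genes that were not called: Oas1a, Oas3, Rsad2 and Xaf1 were at −0.0177, 0.0814, 0.00305 and −0.00644 without knockout replicate 2, Rtp4 at 0.00476 without knockout replicate 3 (−0.140 without knockout replicate 2), and Oas1a, Oas3 and Xaf1 at −0.0640, 0.0176 and −0.0298 with the length trend removed. The farthest values on the other side with 1 library left out were 0.0881 for Oas1a, −0.0783 for Oas3 and −0.0695 for Rsad2, each without knockout replicate 1, and 0.0719 for Xaf1 without wild-type replicate 1. The log2 ratio of Psmb8 to Psmb5, −0.0925 with all libraries, ranged from −0.687 to 0.438 (0.09055 without wild-type replicate 1), where Psmb8 had 2 to 12 counts per library. The cause of these shifts was not tested.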
